A study of Mus musculus with 8 samples.

Results

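Transcripts of 30 genes of cholesterol synthesis, its regulation, and sterol transport, uptake and efflux were followed in mouse lungs after 7 days of hypoxia. The genes were taken by name: 18 enzymes of synthesis (Acat2, Hmgcs1, Mvk, Pmvk, Mvd, Idi1, Fdps, Fdft1, Sqle, Lss, Cyp51, Tm7sf2, Msmo1, Nsdhl, Hsd17b7, Ebp, Sc5d and Dhcr7), 4 regulators (Srebf2, Insig1, Insig2 and Scap) and 8 genes of transport, storage and efflux (Stard4, Npc1, Npc2, Abca1, Abcg1, Soat1, Lcat and Mylip). All 30 had a probe set of their own among the 25428 probe sets of the table, and no member was dropped by a filter. RNA of 1 lung lobe was hybridised per mouse to Affymetrix Mouse Gene 2.0 ST arrays. The hypoxia group held 4 Nfat5fl/fl mice, lettered A, B, C and D, kept at 10% oxygen, and the normoxia group 4 Nfat5fl/fl mice, lettered F, G, H and I, kept in normoxia. Both groups carry the floxed Nfat5 alleles. Per the methods these animals are male offspring of a cross with the smooth muscle line SM-MHC-CreERT2 that received the solvent miglyol in place of tamoxifen, so the floxed allele was not deleted. The letters name different mice, which are the replicates, and pair nothing across the groups.

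Cells make cholesterol from acetyl-CoA through mevalonate, isoprenoid diphosphates, squalene and lanosterol, and they take it up as lipoprotein through receptors. When sterol in the endoplasmic reticulum is low, SCAP carries the transcription factor SREBP2 to the Golgi, where it is cut and set free to switch on genes of sterol synthesis and uptake. INSIG proteins hold SCAP back when sterol is plentiful, and liver X receptors then switch on exporters such as ABCA1 and ABCG1. In the lung, alveolar type II cells put cholesterol into surfactant, and alveolar macrophages clear it.

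The synthesis enzymes had no shift in common between hypoxic and normoxic lungs, with 9 of 18 means higher and 9 lower in hypoxia and a median log2 difference of -0.03. Insig1, the SREBP2-induced retention protein, had the lowest difference of the 30, at 0.538 times its normoxic level in hypoxic lungs. Stard4, which carries cholesterol between membranes, had 1.46 times its normoxic level, and the groups did not overlap. The transport and efflux genes were higher in hypoxia for 6 of 8 means, with a median log2 difference of 0.12. No member passed limma's test after Benjamini-Hochberg adjustment over all probe sets (smallest adjusted p = 0.321), and 0% of all 25428 probe sets passed it. At an unadjusted limma p under 0.05, 1 of 30 members lay higher (3.33%, against 5.34% of all probe sets) and 1 lay lower (3.33%, against 3.15%), both close to the background. All 4 hypoxic values lay above all 4 normoxic values for 3 members, Ebp, Stard4 and Npc2 (10%, against 3.01% of all probe sets), and below them for 0 (against 1.61%). Without hypoxic mouse D there were 6 such members, 4 higher with Scap (against 6.98% of all probe sets) and 2 lower, Insig1 and Nsdhl (against 3.83%). Without normoxic mouse G there were 5, 3 higher (against 4.86%) and the same 2 lower (against 3.94%). Fewer mice separate more often for all probe sets as well.

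**Figure D1:**
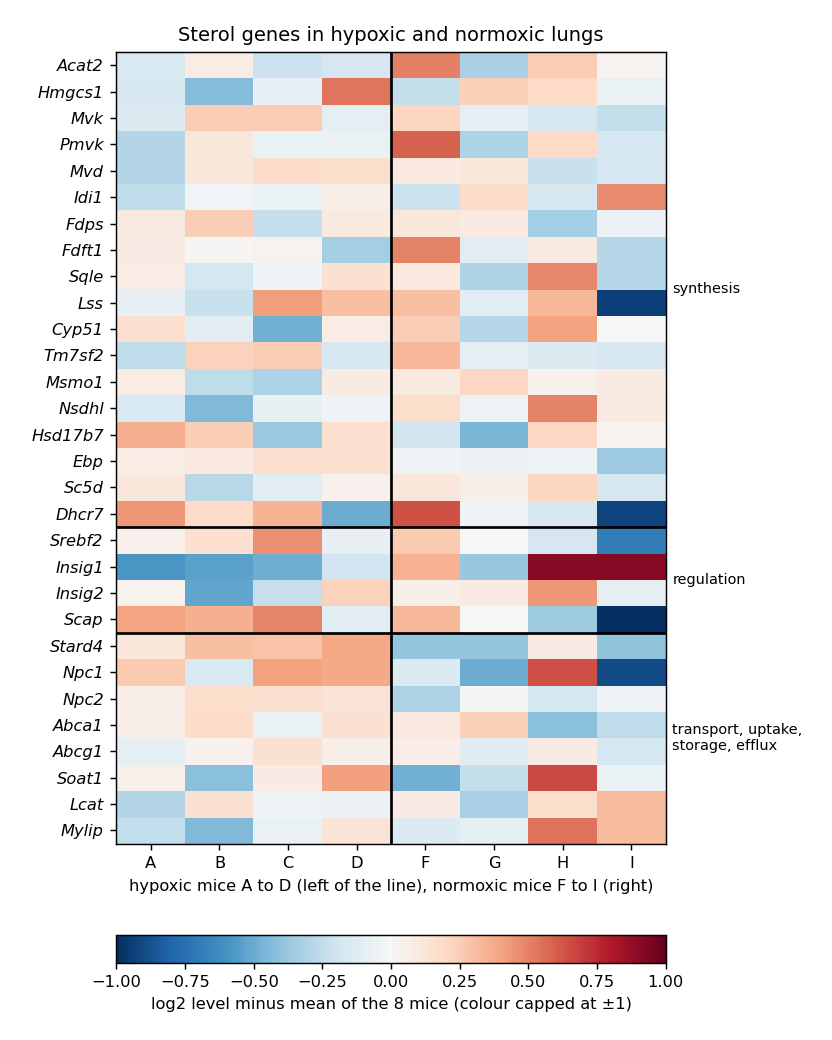
Log2 value of each of the 30 genes in each mouse minus the gene's mean over the 8 mice, as colour, with the hypoxic mice A to D left of the normoxic mice F to I and the genes ordered by pathway step. Insig1 is low in all 4 hypoxic mice and in mouse G, and the synthesis rows have no colour in common across the hypoxic mice.

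Promoter sequence is given for the members the account turns on, chosen after their values were seen, with Hmgcs1 added as the one member whose window held a sterol response element-like match. The RefSeq table (GRCm38.p6) had windows from 250 bases before to 50 after the start site for 24 of the 30 members, and Fdps, Fdft1, Sqle, Stard4, Npc1 and Abcg1 had none in it. The 250 bases before the start are printed in the direction of the gene, for Insig1 at chr5:28071162-28071411 on the plus strand, Ebp at chrX:8193513-8193762 on the minus strand, Npc2 at chr12:84773113-84773362 on the minus strand and Hmgcs1 at chr13:119690101-119690350 on the plus strand. Capitals mark matches on either strand to the SRE-like letters TCACNCCAC, the NF-Y box CCAAT and the E-box CACGTG.
Insig1: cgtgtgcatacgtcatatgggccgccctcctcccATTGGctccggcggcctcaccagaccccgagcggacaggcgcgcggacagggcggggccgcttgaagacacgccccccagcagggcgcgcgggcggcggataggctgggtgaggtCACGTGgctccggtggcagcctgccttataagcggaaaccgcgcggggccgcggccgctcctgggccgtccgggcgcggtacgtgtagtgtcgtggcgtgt
Ebp: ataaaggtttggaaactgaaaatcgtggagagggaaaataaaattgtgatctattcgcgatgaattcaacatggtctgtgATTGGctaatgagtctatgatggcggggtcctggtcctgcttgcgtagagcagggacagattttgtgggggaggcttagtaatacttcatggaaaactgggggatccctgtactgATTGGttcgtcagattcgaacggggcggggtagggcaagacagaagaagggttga
Npc2: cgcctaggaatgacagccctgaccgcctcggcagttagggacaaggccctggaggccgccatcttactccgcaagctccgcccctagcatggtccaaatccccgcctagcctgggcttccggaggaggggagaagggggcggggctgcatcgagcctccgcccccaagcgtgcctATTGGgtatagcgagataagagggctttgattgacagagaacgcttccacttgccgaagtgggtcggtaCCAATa
Hmgcs1: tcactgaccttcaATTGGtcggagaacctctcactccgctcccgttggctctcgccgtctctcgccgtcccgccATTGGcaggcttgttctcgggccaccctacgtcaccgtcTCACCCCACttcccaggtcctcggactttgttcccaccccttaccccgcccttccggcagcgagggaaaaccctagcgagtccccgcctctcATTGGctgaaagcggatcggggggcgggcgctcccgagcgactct
The Hmgcs1 stretch holds the SRE-like match, TCACCCCAC, beginning at -137 counted from the start site, and 3 NF-Y boxes, at -237, -176 and -45. The Insig1 stretch has 1 NF-Y box at -216 and 1 E-box at -101, the Ebp stretch NF-Y boxes at -170 and -55, and the Npc2 stretch NF-Y boxes at -75 and -6. Searched on both strands, the SRE-like letters were in 1 of the 30 member windows (3.33%) and in 1.24% of all 32851 windows of the same length. The NF-Y box was in 70% of member windows against 37.4% of all, the E-box in 23.3% against 7.15%, and the GC box GGGCGG, which is not marked, in 83.3% against 35.7%. Some genes have several windows, and none of these matches shows that a factor binds there.

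The first 7 enzymes build the isoprenoid farnesyl diphosphate from acetyl-CoA, and 3 of them had higher and 4 lower means in hypoxia, with a median log2 difference of -0.07. Hmgcs1, which makes HMG-CoA and is a textbook SREBP2 target, read log2 7.17, 6.89, 7.25 and 7.86 in hypoxic mice A to D, against 7.09, 7.57, 7.52 and 7.26 in normoxic mice F to I. The hypoxic group held both the lowest and the highest Hmgcs1 value, and the difference was -0.07 (95% interval -0.54 to 0.40). Acat2, the cytosolic thiolase that opens the pathway, averaged 5.81 ± 0.13 in hypoxia and 6.04 ± 0.35 in normoxia (log2, SD, n = 4 each), a difference of -0.23 (SE 0.19). The kinases Mvk and Pmvk had small log2 differences of opposite sign, 0.14 (SE 0.17) and -0.16 (SE 0.20). The decarboxylase Mvd had a log2 difference of 0.09 (SE 0.16), the isomerase Idi1 one of -0.14 (SE 0.18) and the farnesyl diphosphate synthase Fdps one of 0.10 (SE 0.17). None of the 7 passed limma's test, and the smallest adjusted p among them was 0.789, that of Acat2.

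The other 11 enzymes turn farnesyl diphosphate into squalene, close it to lanosterol and trim that to cholesterol. Of these, 6 had higher and 5 lower means in hypoxia, with a median log2 difference of 0.01. The squalene synthase Fdft1 differed by -0.10 (SE 0.19), and the squalene epoxidase Sqle, an oxygen-consuming and often rate-limiting step, averaged 6.04 ± 0.14 in hypoxia and 6.03 ± 0.37 in normoxia (log2, SD, n = 4 each). The other oxygen-consuming steps had negative differences whose intervals held 0: the lanosterol demethylase Cyp51 had a log2 difference of -0.18 (SE 0.20), the methylsterol oxidase Msmo1 one of -0.21 (SE 0.15) and the desaturase Sc5d one of -0.12 (SE 0.15). The lanosterol synthase Lss, the reductase Tm7sf2 and the ketoreductase Hsd17b7 had log2 differences of 0.20 (SE 0.27), 0.03 (SE 0.18) and 0.20 (SE 0.20).

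Nsdhl, the dehydrogenase that removes methyl-group carbons with Msmo1, had the lowest difference of the synthesis enzymes. It read 6.23, 5.94, 6.30 and 6.34 in hypoxic mice A to D, against 6.56, 6.33, 6.88 and 6.47 in normoxic mice F to I. The groups touched only where hypoxic mouse D passed normoxic mouse G, and the log2 difference was -0.36 (95% interval -0.72 to 0.01, limma adjusted p = 0.606). Ebp, the sterol isomerase of the last steps, had the highest. It read 6.78, 6.81, 6.87 and 6.87 in hypoxic mice A to D, against 6.68, 6.65, 6.66 and 6.34 in normoxic mice F to I. The hypoxic values were close together and above every normoxic one, by a log2 difference of 0.25 (95% interval -0.06 to 0.56, limma adjusted p = 0.685), and 0.17 without the low mouse I. Dhcr7, which makes cholesterol in the final step, read 7.48, 7.24, 7.39 and 6.55 in hypoxic mice A to D, against 7.69, 7.01, 6.89 and 6.13 in normoxic mice F to I. Its difference of 0.24 turned to -0.03 without mouse I, and that of Lss turned to -0.07 without the same mouse. Over all 18 enzymes the differences ran from -0.36 to 0.25. All 18 of the 95% intervals held 0. The bounds lay a median of 0.405 from the estimate, and the lowest bound was -0.72, for Nsdhl, and the highest 0.91, for Dhcr7.

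**Figure D2:**
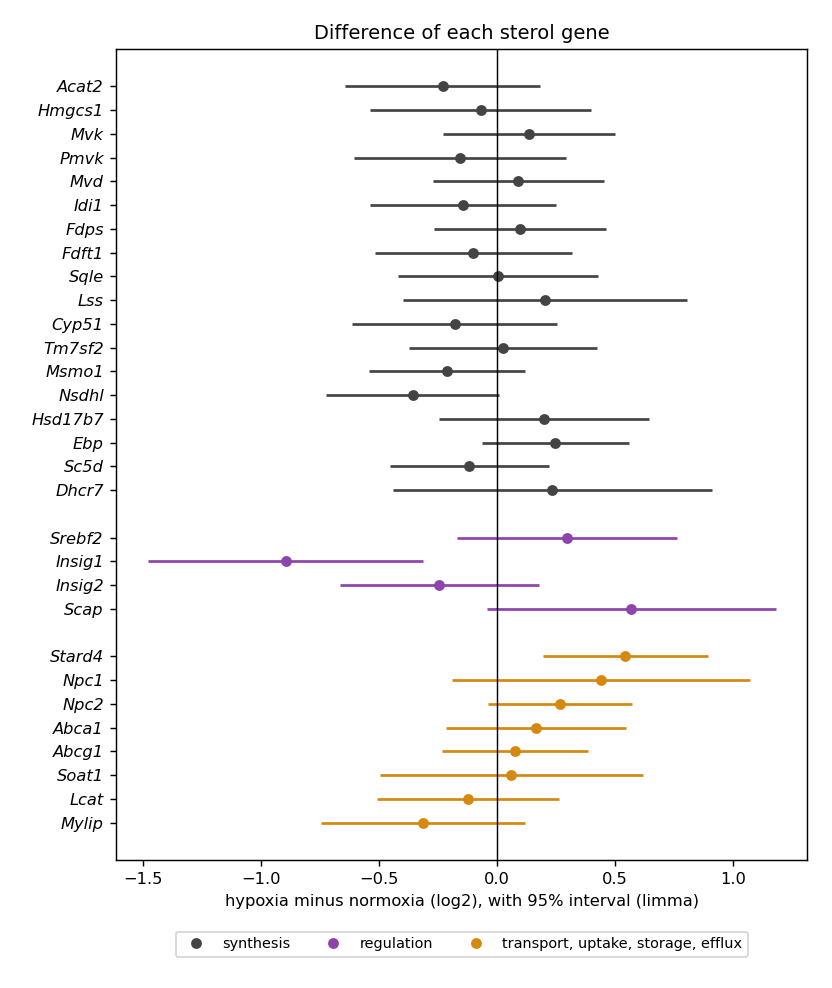
Log2 difference, hypoxia minus normoxia, of each of the 30 genes with its 95% interval from limma, on a linear axis, ordered by pathway step. The intervals of Insig1 (-1.48 to -0.31) and Stard4 (0.20 to 0.89) do not hold 0, and the other 28 do.

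The regulators differed in direction, with 2 of 4 means higher and 2 lower in hypoxia. Insig1, whose protein retains SCAP in the endoplasmic reticulum, read 7.31, 7.36, 7.41 and 7.70 in hypoxic mice A to D, against 8.24, 7.51, 8.80 and 8.80 in normoxic mice F to I. The hypoxic values were all low, and normoxic mouse G lay among them while the other normoxic mice were well above. The log2 difference was -0.89 (SE 0.27, 95% interval -1.48 to -0.31, unadjusted p = 0.00614), which did not pass after adjustment (limma adjusted p = 0.322). Without mouse G the difference was -1.17 with a limma adjusted p of 0.0737, and over all alternatives that p lay between 0.0737 and 0.828. Because whole lobes were measured, fewer cells of a type and less RNA per cell cannot be told apart for this or any other transcript here. Insig1 is also expressed in fat. The mean centred log2 value of 13 measured adipocyte markers was -0.82, -0.89, -0.45 and -0.67 in hypoxic mice A to D, against 1.37, -0.28, 1.17 and 0.56 in normoxic mice F to I. Mouse G was the lowest normoxic mouse for both, but mouse F was the highest for the markers and lay below mice H and I for Insig1. All 13 markers had lower means in hypoxia, and the part of fat tissue in the Insig1 difference was not tested.

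Insig2, the paralogue that is not driven by SREBP2 in the same way, averaged 4.92 ± 0.32 in hypoxia and 5.16 ± 0.22 in normoxia (log2, SD, n = 4 each), a difference of -0.24 (SE 0.19). Scap, the escort of SREBP2, had the highest difference of the 30 members, with 7.83, 7.78, 7.92 and 7.33 in hypoxic mice A to D, against 7.76, 7.43, 7.07 and 6.31 in normoxic mice F to I. Its log2 difference of 0.57 (95% interval -0.04 to 1.18, limma adjusted p = 0.627) rested largely on mouse I and was 0.29 without it. Srebf2, which encodes SREBP2, read 8.34, 8.45, 8.74 and 8.20 in hypoxic mice A to D, against 8.54, 8.28, 8.11 and 7.59 in normoxic mice F to I. Mouse I was again the lowest, and the difference of 0.30 (SE 0.21) was 0.12 without it. Arrays measure the Srebf2 transcript and not the cut, active protein.

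Among the transport genes, Stard4 had the smallest p of all members. It read 5.30, 5.49, 5.47 and 5.58 in hypoxic mice A to D, against 4.80, 4.80, 5.27 and 4.79 in normoxic mice F to I. Every hypoxic mouse was above every normoxic one, although normoxic mouse H came within reach of hypoxic mouse A. The log2 difference was 0.54 (SE 0.16, 95% interval 0.20 to 0.89, unadjusted p = 0.00557, limma adjusted p = 0.321), which ranked 440 among the p-values of all probe sets. Leaving out single mice gave differences of 0.50 to 0.66. Stard4 is itself known as an SREBP2 target.

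NPC1 and NPC2 pass cholesterol out of the lysosome after lipoprotein uptake. Npc2, the soluble partner of the pair, read 10.55, 10.66, 10.65 and 10.61 in hypoxic mice A to D, against 10.16, 10.48, 10.31 and 10.45 in normoxic mice F to I. The groups did not overlap, with a log2 difference of 0.27 (95% interval -0.04 to 0.57, limma adjusted p = 0.645). Npc1, the membrane protein, read 7.78, 7.37, 7.92 and 7.90 in hypoxic mice A to D, against 7.39, 7.03, 8.17 and 6.63 in normoxic mice F to I. The normoxic mice spanned both extremes of Npc1, and its difference of 0.44 (SE 0.29) was 0.22 without mouse I.

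The exporters Abca1 and Abcg1, both targets of liver X receptors, had log2 differences of 0.17 (SE 0.17) and 0.08 (SE 0.14). Abca1 averaged 7.13 ± 0.11 in hypoxia and 6.96 ± 0.30 in normoxia, and Abcg1 7.85 ± 0.10 in hypoxia and 7.77 ± 0.13 in normoxia (log2, SD, n = 4 each). Soat1, which esterifies cholesterol for storage, averaged 8.52 ± 0.34 in hypoxia and 8.46 ± 0.49 in normoxia. Lcat, the plasma esterification enzyme made mainly by liver, was dim in both groups, at 3.82 ± 0.18 in hypoxia and 3.94 ± 0.28 in normoxia. Mylip, a ubiquitin ligase that brings about the breakdown of lipoprotein receptors and is induced by liver X receptors, read 6.24, 6.04, 6.42 and 6.62 in hypoxic mice A to D, against 6.35, 6.39, 7.03 and 6.81 in normoxic mice F to I. The groups overlapped, and its log2 difference of -0.31 (SE 0.20, limma adjusted p = 0.717) was the lowest of the 8 transport genes.

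**Figure D3:**
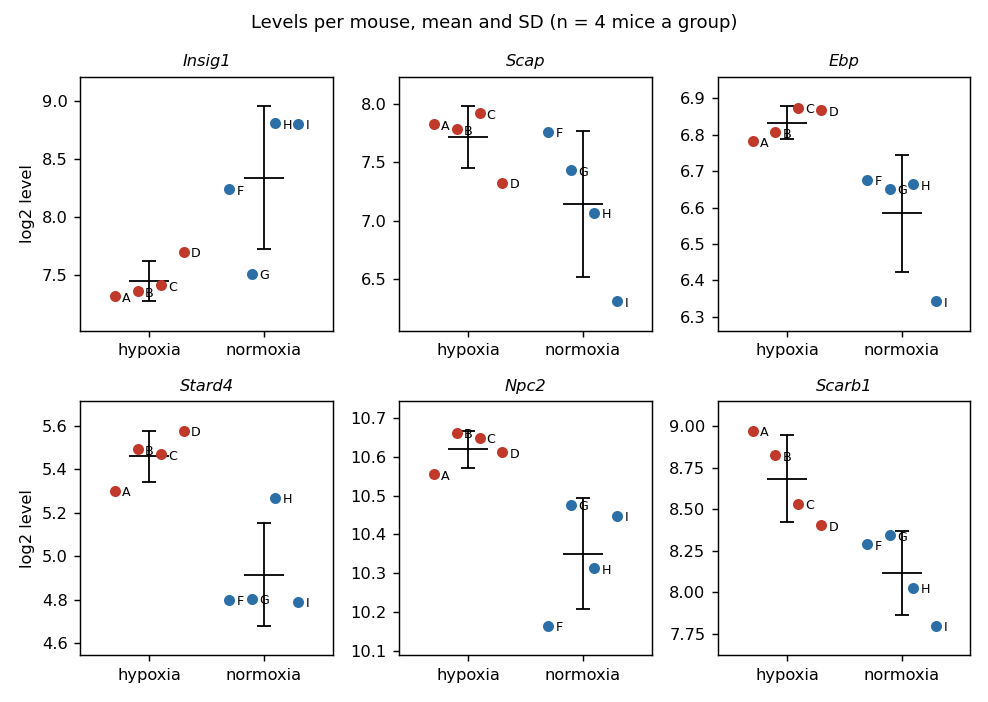
Log2 value in each mouse (points) with the group mean and SD for Insig1, Scap, Ebp, Stard4, Npc2 and the HDL receptor gene Scarb1, hypoxia left of normoxia, each panel with its own axis. The groups do not overlap for Ebp, Stard4, Npc2 and Scarb1, and mouse I is lowest for Scap, Ebp, Stard4 and Scarb1.

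Synthesis was set against transport and efflux within each mouse by the mean of the centred log2 values of each set. The synthesis mean was -0.02, -0.02, -0.02 and 0.03 in hypoxic mice A to D, against 0.19, -0.07, 0.09 and -0.17 in normoxic mice F to I. The hypoxic mice were nearly alike, and the normoxic mice lay on both sides of them. The transport mean was -0.01, -0.02, 0.11 and 0.20 in hypoxic mice A to D, against -0.15, -0.18, 0.20 and -0.15 in normoxic mice F to I, so that normoxic mouse H alone kept the groups from separating. Synthesis minus transport averaged -0.08 ± 0.09 in hypoxia and 0.08 ± 0.19 in normoxia (SD, n = 4 each), and the groups overlapped. The medians of the log2 differences, -0.03 for synthesis, 0.12 for transport and -0.01 over all probe sets, are descriptions and carry no test. Synthesis minus transport was -0.15 by these medians. With Stard4 counted among the synthesis genes it was -0.07, the synthesis median being 0.01 and the transport median 0.08. Without 1 mouse the synthesis median lay between -0.08 (without I) and 0.04 (without F) and thus changed sign, while the transport median lay between 0.08 (without I) and 0.19 (without H).

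The mice of the normoxia group differed more among themselves. The SD was smaller in hypoxia than in normoxia for 22 of the 30 members (73.3%, against 59.2% of all probe sets), for 8 of 8 transport genes and for 11 of 18 synthesis enzymes. The median SD of the transport genes was 0.15 in hypoxia and 0.29 in normoxia, and that of the synthesis enzymes 0.21 in hypoxia and 0.26 in normoxia. Normoxic mouse H was the highest of the 8 mice in 9 members and normoxic mouse I the lowest in 9. No test of the spread was made.

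The 46 related sterol genes, a list written beside the members and all measured, had 26 higher and 20 lower means in hypoxia and a median log2 difference of 0.07, and 0 passed limma's adjusted test (smallest adjusted p = 0.379). At an unadjusted p under 0.05, 3 lay higher (6.52%, against 5.34% of all probe sets) and 2 lower (4.35%, against 3.15%), near the background. Scarb1, the receptor that takes cholesteryl ester from HDL, read 8.97, 8.82, 8.53 and 8.40 in hypoxic mice A to D, against 8.29, 8.34, 8.03 and 7.80 in normoxic mice F to I. All hypoxic values were the higher ones, with a log2 difference of 0.57 (SE 0.18, unadjusted p = 0.01, limma adjusted p = 0.379) that stayed between 0.46 and 0.66 when single mice were left out.

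Lrp1, a large endocytic receptor, averaged 8.995 ± 0.53 in hypoxia and 8.31 ± 0.63 in normoxia with overlapping groups, and Vldlr, the VLDL receptor, 5.26 ± 0.18 in hypoxia and 5.35 ± 0.38 in normoxia (log2, SD, n = 4 each). Ch25h, which makes an oxysterol that blocks SREBP processing, had a log2 difference of 0.40 (SE 0.15, limma adjusted p = 0.47), with overlapping groups. Cyp46a1, a sterol hydroxylase best known from brain, was dim and lower in hypoxia without overlap, by a log2 difference of -0.35 (SE 0.15, limma adjusted p = 0.543). Gramd1c, of a family that moves plasma membrane cholesterol inward, had a log2 difference of -0.53 (SE 0.22, limma adjusted p = 0.547), and its groups overlapped.

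Fatty acid synthesis, the other lipid program under SREBP control, is given for comparison. Of its 12 genes 11 had lower means in hypoxia, with a median log2 difference of -0.93, against 9 of 18 and -0.03 for cholesterol synthesis. The mean centred value of the 12 was -0.44, -0.53, -0.40 and -0.57 in hypoxic mice A to D, against 1.13, -0.23, 0.76 and 0.28 in normoxic mice F to I. Hypoxic mice were all below normoxic ones, and mouse G was the lowest normoxic mouse, as in the adipocyte markers, whose summed level (as log2) was 9.58 to 10.26 in hypoxia and 10.50 to 12.18 in normoxia. The difference between the cholesterol and the fatty acid sets was not tested.

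**Figure D4:**
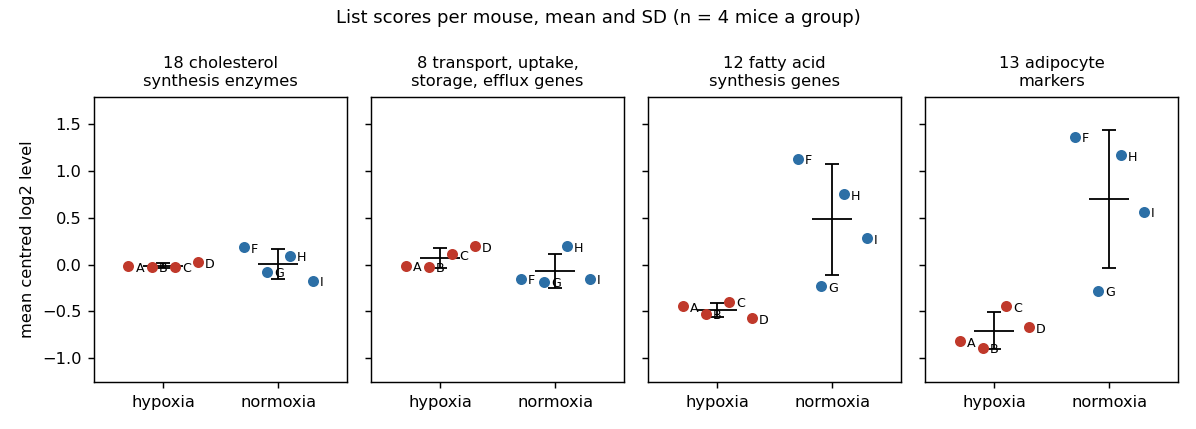
Mean centred log2 value per mouse (points) with the group mean and SD for cholesterol synthesis, transport and efflux, fatty acid synthesis and adipocyte markers, hypoxia left of normoxia. Fatty acid synthesis and adipocyte markers lie lower in all 4 hypoxic mice, and both cholesterol sets overlap between the groups.

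Marker levels of other cell types differed between the groups as well. The alveolar type II markers were strongly present, with Sftpc at 13.31 ± 0.24 in hypoxia and 13.06 ± 0.29 in normoxia (log2, SD, n = 4 each). Their summed level overlapped, at 14.75 to 15.17 in hypoxia and 14.45 to 14.97 in normoxia. That of macrophage markers overlapped too, at 10.96 to 11.43 in hypoxia and 10.85 to 11.14 in normoxia. Of the 14 macrophage markers, 9 had higher and 5 lower means in hypoxia, with a median log2 difference of 0.22. Their single differences ran from -0.68 for Ear2 to 0.67 for C1qb. The 7 fibroblast markers summed to 10.97 to 11.25 in hypoxia and 10.58 to 10.82 in normoxia, higher without overlap. Of these, 5 had higher and 2 lower means in hypoxia, with a median log2 difference of 0.16. The collagen genes Col1a1, Col1a2 and Col3a1 had log2 differences of 1.51, 0.94 and 0.74, against -0.28 for Pdgfra and -0.48 for Lum. Tcf21 and Dpt had differences of 0.16 and 0.03. The 12 markers of dividing cells summed to 8.59 to 9.88 in hypoxia and 7.53 to 8.09 in normoxia, also higher without overlap. The 10 cardiac muscle markers summed to 9.90 to 10.21 in hypoxia and 10.48 to 11.13 in normoxia, lower without overlap. Taken singly, all 10 had lower means in hypoxia. The groups did not overlap for 7 of them (70%, against 1.61% of all probe sets lower without overlap), and they overlapped for Myh6, Ryr2 and Actc1. The part of these cell types in the values of the sterol genes was not tested.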

How the data were processed

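RNA of 1 lung lobe from each of 8 mice was measured on arrays. The authors deposited log2 intensities, quantile normalized per their methods, with probes grouped by Entrez gene (custom chip definition, version 22). RMA is named, with no version, in the submitters' processing notes. How background was corrected, and over which arrays normalization ran, is not stated in the methods or labels. Of 25428 probe sets, 24705 were named by the array annotation and 564 more by Entrez ID (RefSeq, GRCm38.p6), Acat2 and Soat1 among them. Array medians lay between 4.17 and 4.20. The array of mouse F is stored more finely, and only 2.18% of its values fall on the step that the other arrays share.

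Differences are hypoxia minus normoxia, tested across the whole table with limma 3.58.1 in R 4.3.3, with Benjamini-Hochberg adjustment and a threshold of 0.05. The fit was also run on simulated data in which genes varied independently, so genes that vary together across mice were not covered. No filter or pseudocount was used. Genes with an unadjusted p under 0.05 or groups that did not overlap were named, besides all members, and some genes that this rule takes are not reported here. Members and lists were chosen with earlier results of these data known. Precision is set by the number of mice, since an array has no sequencing depth. Alternatives were another quantile normalization, median centring, leaving out dim or unnamed probe sets, the one-way ANOVA of the methods, an intensity trend with robust variance, array weights, and each mouse left out.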

Additional observations from a re-analysis of the deposited data

Results flagged for a closer look

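In 7 of 66 groups of 4 mice that were examined, 1 mouse lay far from the other 3 by Dixon's criterion, which chance meets in about 1 of 20 groups. For Mvd in hypoxia, mouse A was at 5.722, against 6.127 to 6.200 in the others. Fdft1 in hypoxia was at 6.837 in mouse D, against 7.188 to 7.259. Tm7sf2 in normoxia was at 6.059 in mouse F, against 5.560 to 5.633. Ebp in normoxia was at 6.343 in mouse I, against 6.652 to 6.676, and Stard4 in normoxia at 5.269 in mouse H, against 4.789 to 4.804. The synthesis mean in hypoxia was 0.026 in mouse D, against -0.022 to -0.016, a gap that is small beside the normoxic spread. The transport mean in normoxia was 0.199 in mouse H, against -0.180 to -0.149.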

How the results depend on the processing

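Over 15 alternatives 0 of the members passed limma's or the ANOVA's adjusted test, with a smallest adjusted p between 0.0737 (without mouse G) and 0.828 (without mouse B). By the one-way ANOVA, the unadjusted p was under 0.05 for 3 members that lay higher (against 4.99% of all probe sets) and 1 that lay lower (against 2.89%). Of all probe sets, 53 passed when dim ones were left out, 22 with array weights, 12 with an intensity trend and robust variance, and 33, 23 and 14 without mouse C, G and H, none of them a member. The number of members whose groups did not overlap was 3, and 3 to 6 when single mice were left out, when more of all probe sets separated too (3.25% to 6.98% higher and 2.02% to 3.94% lower, against 3.01% and 1.61% with all mice). Median centring gave medians of -0.02 for synthesis and 0.13 for transport. Single-gene results kept their direction and their side of the threshold in all 134 recomputations. With 4 arrays per group, the bounds of a synthesis enzyme's 95% interval lay a median of 0.405 from its log2 difference.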
